A study of Mus musculus with 54 samples.

Results

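The RNA of germ cell-enriched testis preparations from compound mutant mice (CM; *Ctcf*+/- *Boris*-/-) was compared with that of BORIS knockout mice (BORIS KO; *Ctcf*+/+ *Boris*-/-), so that both groups lacked BORIS and differed by the loss of 1 *Ctcf* allele. The comparison took in 6 whole testis libraries, 3 of each genotype, out of 12 whole testis RNA-seq libraries and 54 samples in the series. The other 6 whole testis libraries, 3 from wild type mice (WT; *Ctcf*+/+ *Boris*+/+) and 3 from *Ctcf* heterozygotes (CTCF HET; *Ctcf*+/- *Boris*+/+), gave the effect of the same allele with BORIS present. All mice were C57BL/6 and 3 months old. Each library was made from a separate preparation that pooled 4 mice, from testes treated with collagenase and trypsin and strained, so the libraries do not show single animals, and what was called whole testis was a suspension enriched for germ cells. The study states that the CM mice were derived by crossing CTCF HET females with BORIS KO males. As CTCF HET mice are *Boris*+/+, this cross alone gives no *Boris*-/- offspring, and the study describes no further cross. The mutations were present in every cell of the animal and not only in germ cells, and 1 intact *Ctcf* allele remained because mice with none die as embryos. Ribosomal RNA was depleted from the whole testis RNA before library preparation.

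CTCF is a zinc finger protein that binds DNA through a long shared motif, halts the cohesin ring as it extrudes chromatin loops and so sets the borders of domains, and also sits at many promoters. BORIS, encoded by *Ctcfl*, carries nearly the same zinc fingers but other ends, and among normal tissues is made in male germ cells, where it joins CTCF at part of its sites, often at active promoters. Spermatogenesis runs from spermatogonia through meiotic spermatocytes to haploid round spermatids, which then build an acrosome and a flagellum and replace histones by transition proteins and protamines, while Sertoli cells nurse them and Leydig cells between the tubules make testosterone.

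Between 11830194 and 36401162 counts were assigned to genes per BORIS KO library and between 10437683 and 33899173 per CM library, and replicate 1 was the deepest of each group. Levels are given as CPM, the count of a gene relative to the library total scaled by the trimmed mean of M values (TMM), and fold changes as log2 of CM over BORIS KO with the standard error (SE). A gene was called when edgeR's quasi-likelihood test over all 12 libraries gave a Benjamini-Hochberg adjusted p under 0.05. The scaling factors were 1.14 to 1.22 in CM and 0.960 to 1.05 in BORIS KO, without overlap. Libraries with the same replicate number deviated together across genotypes, although some with different numbers did so as well, and the test was therefore also run with that number as a block.

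The targeted gene was measured first. *Ctcf* stood at 30.7, 38.8 and 34.1 CPM in the 3 BORIS KO libraries and at 26.4, 26.9 and 24.3 CPM in the 3 CM libraries. Every CM library was below every BORIS KO library, and the CM mean was 74.9% of the BORIS KO mean. The log2 fold change was -0.41 (SE 0.18) and did not pass the test (edgeR adjusted p = 0.158, and 0.0616 to 0.374 over 11 alternatives). With BORIS present, *Ctcf* was at 45.1, 40.9 and 42.1 CPM in WT and at 27.7, 30.4 and 23.0 CPM in CTCF HET. *Ctcfl* had 18, 9 and 8 counts in WT, 7, 5 and 3 in BORIS KO and 8, 2 and 2 in CM, too few to be tested or to check the labels.

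*Rltpr*, which encodes a capping protein regulator of leukocytes, was the gene with the clearest difference. It rose from 1.80, 0.803 and 1.38 CPM in BORIS KO to 77.8, 49.4 and 41.4 CPM in CM, a log2 fold change of 5.34 (SE 0.36, edgeR adjusted p = 3.03e-05). The 3 CM libraries lay far above the BORIS KO libraries, 42.3-fold by the means. The same was seen with BORIS present, where *Rltpr* rose from 1.13 to 1.64 CPM in WT to 68.2 to 104 CPM in CTCF HET (log2 fold change 5.77, SE 0.37, edgeR adjusted p = 1.51e-05). *Rltpr* is the next annotated gene after *Ctcf* on chromosome 8 (mm9), on the same strand, with 3351 bases and no annotated gene between the end of *Ctcf* (108206822) and its own start (108210174). It was at 0.606 to 2.80 CPM in the WT and BORIS KO libraries of purified round spermatids and spermatocytes and at 30.1 to 79.8 CPM in those of CTCF HET and CM, so its level separated the libraries by the labelled *Ctcf* genotype in each of the 3 materials.

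**Figure D1:**
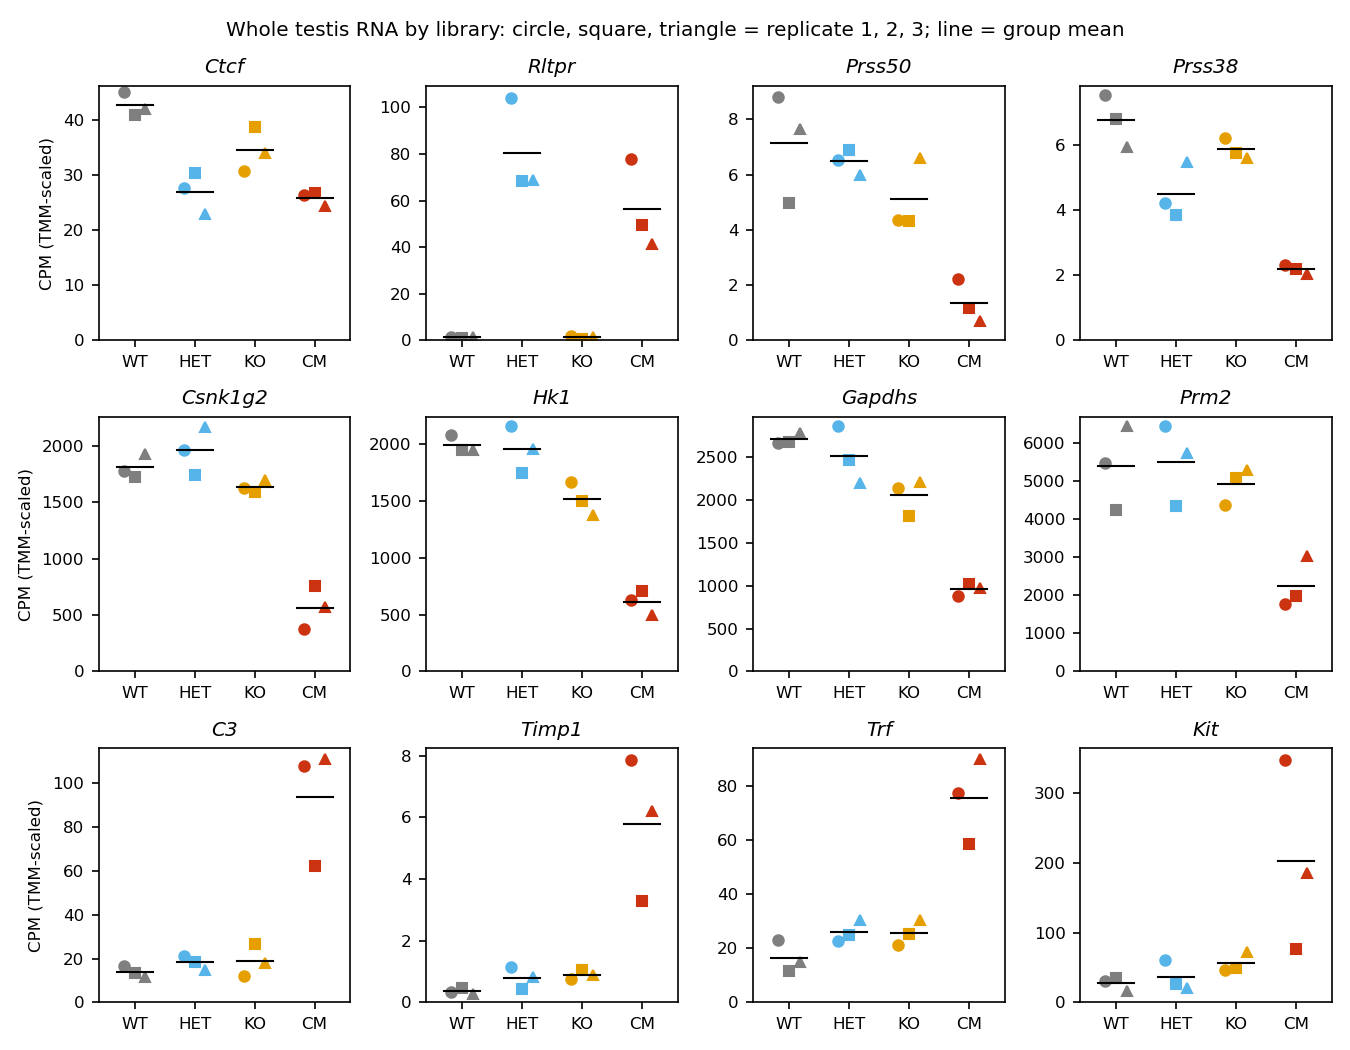
Levels of 12 genes in each whole testis library, in TMM-scaled CPM on linear axes from 0, for WT, CTCF HET (HET), BORIS KO (KO) and CM. Circles, squares and triangles are replicates 1, 2 and 3 and the line is the group mean. *Rltpr* was high in both genotypes with 1 *Ctcf* allele, while *Csnk1g2*, *Hk1*, *Gapdhs* and *Prm2* were lower, and *C3*, *Timp1* and *Trf* higher, in CM than in BORIS KO.

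Several called genes carried a CTCF peak of WT testis at their start. The 201 bases centred on its summit are shown for *Rltpr*, the gene with the largest change; for *Prss50*, *Prss38* and *Mfi2*, called lower and carrying CTCF and BORIS together; and for *Rps4x*, called higher and carrying CTCF alone. All are from the plus strand of mm9, and capitals mark a short form of the CTCF motif, searched on both strands and spelled as CC, any 3 bases, AG, any 2 bases and GGC.
Rltpr (higher in CM), chr8:108209716-108209916: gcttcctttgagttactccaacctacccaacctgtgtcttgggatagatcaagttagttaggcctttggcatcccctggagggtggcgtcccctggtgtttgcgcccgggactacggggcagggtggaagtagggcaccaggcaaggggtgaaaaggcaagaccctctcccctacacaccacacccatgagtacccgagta
Prss50 (lower in CM), chr9:110760320-110760520: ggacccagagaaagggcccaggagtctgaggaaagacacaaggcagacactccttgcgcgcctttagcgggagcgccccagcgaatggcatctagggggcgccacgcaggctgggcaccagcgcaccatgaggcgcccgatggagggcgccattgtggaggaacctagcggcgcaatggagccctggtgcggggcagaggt
Prss38 (lower in CM), chr11:59189073-59189273: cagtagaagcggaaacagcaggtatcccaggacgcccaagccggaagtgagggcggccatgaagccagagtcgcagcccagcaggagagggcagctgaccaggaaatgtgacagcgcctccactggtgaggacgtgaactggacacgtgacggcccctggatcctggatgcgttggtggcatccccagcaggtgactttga
Mfi2 (lower in CM), chr16:31878734-31878934: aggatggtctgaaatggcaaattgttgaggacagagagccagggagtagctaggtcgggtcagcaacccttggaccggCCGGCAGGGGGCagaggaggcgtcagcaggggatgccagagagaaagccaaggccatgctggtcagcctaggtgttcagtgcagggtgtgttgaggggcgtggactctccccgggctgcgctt
Rps4x (higher in CM), chrX:99384634-99384834: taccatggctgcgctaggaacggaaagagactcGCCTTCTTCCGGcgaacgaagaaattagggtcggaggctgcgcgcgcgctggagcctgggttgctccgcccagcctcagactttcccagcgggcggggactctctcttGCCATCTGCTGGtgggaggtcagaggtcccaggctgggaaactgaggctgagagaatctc
The *Mfi2* window held the motif 1 time and the *Rps4x* window 2 times, and these letters were not in the other windows. Of all 34625 WT CTCF summit windows of this length 49.6% held it, of 7652 BORIS summit windows 54.0%, and of 16481 windows centred on a transcription start 7.14%. The *Rltpr* summit (peak height 2726) lay 358 bp upstream of the start, those of *Prss50* (1298), *Prss38* (3270), *Mfi2* (2613) and *Rps4x* (715) lay 51, 14, 62 and 1 bp upstream. A BORIS peak of WT testis lay at *Prss50* (height 1403), *Prss38* (372) and *Mfi2* (96), and none was listed within 2 kb of the *Rltpr* or *Rps4x* start. In the CM list a CTCF peak overlapped those of *Rltpr*, *Prss38* and *Mfi2*, and none was listed at *Prss50* or *Rps4x*.

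Across the 17185 genes tested, 379 were called (2.21%), of which 182 were higher (1.06%) and 197 lower (1.15%) in CM. The calls were shallow in significance. Apart from *Rltpr*, the other 378 had edgeR adjusted p values of at least 0.0352, and 304 of the 379 changed more than 2-fold. The higher genes had a median log2 fold change of 1.57 and the lower genes of -1.09, beside 0.01 over all genes tested. In each of the 182 higher genes every CM library was above every BORIS KO library, and in each of the 197 lower genes every CM library was below, beside 13.7% and 13.2% of all genes tested. The called genes differed in level, with a median of 11.6 CPM for the higher and 115 CPM for the lower genes, beside 13.3 CPM over all genes tested.

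The number of calls depended on the design and on single libraries. With the replicate number as a block, 4038 genes were called (23.5%), 2209 higher (12.9%) and 1829 lower (10.6%), among them all 379. DESeq2 called 1422 higher (8.27%) and 904 lower (5.26%). A fit of the 6 libraries alone called 1 gene, *Rltpr*, and 1225 with the block. Leaving out CM replicate 2 gave 2880 calls, and leaving out any other of the 6 libraries gave 1 or 2. CM replicate 2 was the CM library nearest to BORIS KO in 174 of the 182 higher and 138 of the 197 lower genes, and its median shift of the higher genes, as log2(CPM + 1) above the BORIS KO mean, was 0.71 against 1.64 and 1.52 in replicates 1 and 3. All 379 genes kept the direction of the difference with the block in the fit of 12 libraries and with DESeq2. They also kept it in the fit of 6 libraries without the block and without each of the 6 libraries. As no called gene overlapped between the genotypes, these fits could hardly turn a direction, so this is no further evidence.

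**Figure D2:**
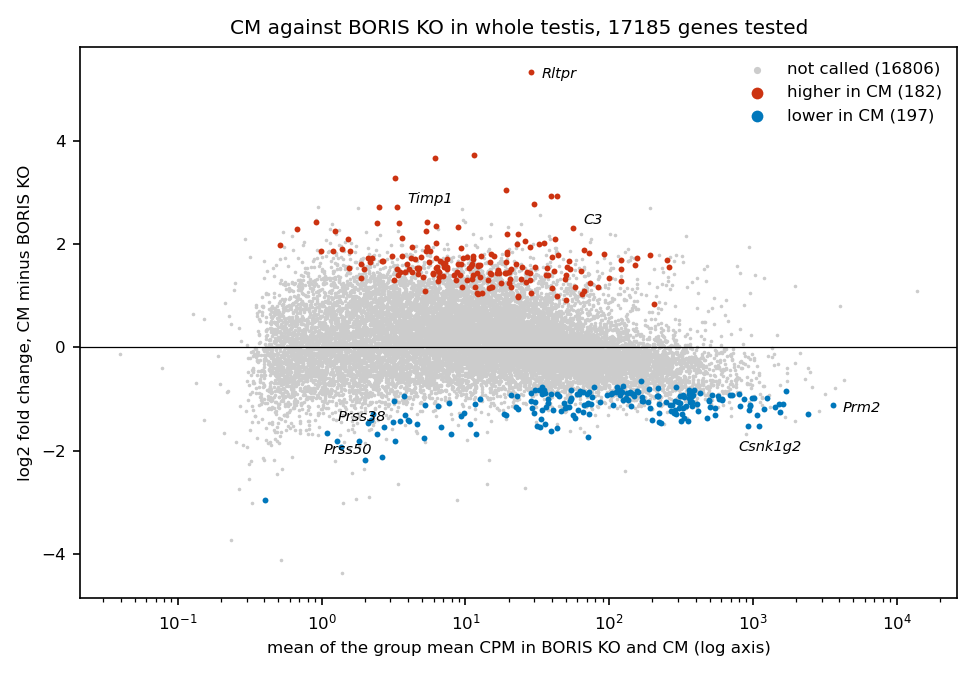
The log2 fold change of CM over BORIS KO for each of 17185 genes against its level in CPM (log axis). Red points are the 182 genes called higher and blue points the 197 called lower. The lower genes lay further to the right, at a median of 115 CPM against 11.6 CPM, beside 13.3 CPM over all genes tested.

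The 8 genes lower in CM with the smallest p values were drawn from calls without overlap between the genotypes, and their levels ranged widely. *Hk1*, which encodes hexokinase 1, the enzyme of the first step of glycolysis, was at 1660, 1499 and 1375 CPM in BORIS KO and at 626, 706 and 493 CPM in CM. It fell by 1.31 on the log2 scale (SE 0.19, edgeR adjusted p = 0.0352) to 40.3% of the BORIS KO mean. *Csnk1g2*, a casein kinase 1 gene, fell from 1627, 1591 and 1694 CPM to 373, 753 and 572 CPM, or 34.6% of the mean, and CM replicate 2 was the least low. *Eya4*, a transcriptional coactivator and phosphatase, *St6galnac2*, a sialyltransferase, and *Col2a1*, the chain of type II collagen, fell to 38.6, 43.0 and 32.4% of the BORIS KO mean. *Pcdha2*, 1 of the alpha protocadherins, which choose among alternative promoters that CTCF binds, was at 25.8 to 29.6 CPM in BORIS KO and at 9.77 to 12.5 CPM in CM. Protocadherin alpha genes share their last exons, so the counting could divide their reads among them. *Wbscr25* and *4931440L10Rik* completed the 8 lower genes with the smallest p values.

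Genes of spermatids were examined in 6 lists, none of which held a gene called higher. The counts of called members in these and later lists stand beside 1.06% of all genes called higher and 1.15% called lower. Of 31 flagellum genes tested 6 were called lower, and all 31 had a negative fold change (median -0.64). *Akap3*, an anchor of protein kinase A in the fibrous sheath, was at 1719, 1665 and 1574 CPM in BORIS KO and at 749, 959 and 812 CPM in CM. *Tcp11*, *Klhl10*, *Hook1* and *Spata6* were among the others that fell, and *Spata6*, needed to join the tail to the head, fell to 50.4% of the BORIS KO mean. *Akap4*, the main fibrous sheath protein, was at 2564 to 4845 CPM in BORIS KO and 708 to 2374 CPM in CM without passing the test, and *Odf2*, of the outer dense fibres, was at 4319 to 6461 and 2647 to 4010 CPM. With the block 18 of the 31 were called lower, beside 10.6% of all genes tested.

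Of 11 genes of spermatid chromatin 1 was called, *Prm2*, the protamine that packs the sperm genome. It was at 4363, 5091 and 5283 CPM in BORIS KO and at 1769, 1972 and 3020 CPM in CM, and fell to 45.9% of the mean (log2 fold change -1.12, SE 0.25, edgeR adjusted p = 0.0449). *Tnp1*, *Tnp2* and *Prm1* had log2 fold changes of -1.14, -0.91 and -1.43, but their libraries overlapped between genotypes, with *Prm1* at 959, 3606 and 4060 CPM in BORIS KO and 112, 1180 and 1910 CPM in CM. In both genotypes replicate 1 held the least *Prm1*. With the block 7 of the 11 were called lower, in a fit that called 10.6% of all genes lower. Among 15 spermatid gene regulators *Sox30*, a transcription factor that switches on spermatid genes, fell from 124 to 143 CPM in BORIS KO to 61.4 to 81.2 CPM in CM, and 10 were called lower with the block. Among 26 acrosome and fertilization genes only *Spaca7* was called, from 43.8 to 56.9 down to 22.5 to 32.2 CPM, and with the block 12 were, although 25 of the 26 had a negative fold change (median -0.51).

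None of 15 spermatid kinases and phosphatases or 13 sperm ion channels was called. With the block 10 and 3 of them were called lower, beside 10.6% of all genes tested. *Tssk2*, a testis-specific serine kinase, was at 887, 1066 and 958 CPM in BORIS KO and at 379, 594 and 564 CPM in CM, without overlap (edgeR adjusted p = 0.0512, and 0.00285 to 0.148 over 11 alternatives). *Atp1a4*, the sodium pump of the sperm tail, was at 1365 to 1742 and 457 to 962 CPM. Enzymes of sperm energy supply gave 2 lower calls of 17, both without overlap of the genotypes. *Gapdhs*, the glyceraldehyde phosphate dehydrogenase of sperm, fell from 2141, 1816 and 2211 CPM to 878, 1022 and 973 CPM, and *Acsbg2*, an acyl-CoA synthetase, fell to 47.1% of the BORIS KO mean. Of 16 heat shock genes 3 were called lower, *Hspa1l*, which spermatids use, and the stress-inducible *Hspa1a* and *Hspa1b*, whose near-identical sequences make the division of reads between them uncertain.

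Genes of earlier germ cells showed few calls. Of 29 meiotic prophase genes none was called, with a median log2 fold change of -0.18, and *Stag3*, the meiotic cohesin subunit, was at 509 to 716 CPM in BORIS KO and at 424 to 622 CPM in CM. The block called 5 of them lower, beside 10.6% of all genes tested. Of 17 genes of the piRNA pathway and germ granule none was called by edgeR, with the block or by DESeq2. Of 18 spermatogonial genes tested 12 had a negative and 6 a positive fold change (median -0.16), and 1 was called, *Ccnd2*. With the block 3 were called higher, beside 12.9% of all genes tested, and with DESeq2 4, beside 8.27%. Neither called a member lower. *Ccnd2*, a cyclin of proliferating spermatogonia, rose from 2.98, 6.99 and 5.67 CPM to 25.7, 8.24 and 18.6 CPM, while *Dazl* and *Uchl1* had log2 fold changes of -0.10 and -0.14. *Kit*, the receptor of differentiating spermatogonia and also of Leydig cells, was at 46.8, 49.3 and 72.0 CPM in BORIS KO and at 348, 76.8 and 185 CPM in CM (edgeR adjusted p = 0.0591, and 0.00635 to 0.199 over 11 alternatives), and was called with the block.

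The genes higher in CM with the smallest p values, apart from *Rltpr*, were drawn from calls without overlap and were not members of the somatic marker lists. *C3*, the central complement component, rose from 12.2, 26.5 and 18.0 CPM in BORIS KO to 108, 62.3 and 111 CPM in CM (log2 fold change 2.32, SE 0.31, edgeR adjusted p = 0.0352). *Timp1*, an inhibitor of metalloproteinases, rose from 0.744, 1.04 and 0.881 CPM to 7.87, 3.30 and 6.22 CPM. *Lbh*, a transcription cofactor, *Syt12*, a synaptotagmin, *Anxa1*, an annexin, and *Ifi35*, an interferon-induced gene, rose 3.90-, 5.06-, 2.85- and 3.28-fold by the means. *Rps4x*, an X-linked ribosomal protein gene with processed copies elsewhere that may share its reads, rose from 7.73, 9.40 and 8.48 CPM to 24.8, 20.0 and 45.5 CPM. CM replicate 2 was the lowest of the 3 CM libraries for all of these.

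Of 18 Sertoli cell genes tested 1 was called and all 18 had a positive fold change (median 0.93). *Trf*, the transferrin that Sertoli cells secrete, rose from 21.1, 25.4 and 30.6 CPM to 77.6, 58.7 and 90.3 CPM. The summed level of the list was 653 to 776 CPM in BORIS KO and 905 to 1896 CPM in CM, without overlap. Of 11 Leydig cell genes 1 was called, *Hsd3b6*, a steroid dehydrogenase of adult Leydig cells, which rose from 70.2, 95.2 and 93.6 CPM to 388, 136 and 377 CPM. The summed level of Leydig genes was 859 to 1659 CPM in BORIS KO and 2123 to 4318 CPM in CM, beside 442 to 947 CPM in WT and CTCF HET together. *Cyp17a1* and *Cyp11a1*, steroidogenic enzymes, were higher in each CM library than in any BORIS KO library without passing the test. Of 16 peritubular and stromal genes *Col3a1*, a fibrillar collagen, rose, and the summed level was 580 to 644 CPM in BORIS KO and 899 to 2685 CPM in CM.

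Of 19 macrophage genes tested *Cx3cr1*, a chemokine receptor, was called higher, 18 had a positive fold change (median 1.27), and with the block 18 were called higher, beside 12.9% of all genes tested. The exception was *Aif1*, at 373 to 493 CPM in BORIS KO and 101 to 332 CPM in CM. In WT germ cells *Aif1* was over 2-fold higher in round spermatids than in spermatocytes. Another member with that pattern had a positive log2 fold change of 1.03. The summed level of the list, *Aif1* included, overlapped between the genotypes, at 636 to 769 CPM in BORIS KO and 689 to 1140 CPM in CM. Endothelial genes were mixed in direction. Of 8 tested 3 had a positive and 5 a negative fold change (median -0.16), and only *Flt1*, a receptor of vascular growth factor, was called. *Flt1* and *Vwf* had log2 fold changes of -1.31 and -0.84, and *Cdh5* and *Eng* of 0.89 and 0.81. In WT germ cells *Cdh5* and *Eng* were below 1 CPM in both cell types, while *Flt1* and *Vwf* were not. The other members tested did not divide in this way. Those below 1 CPM in both had log2 fold changes of -0.33 and -0.11, and those above it of 0.96 and -0.22. The summed level was 55.2 to 65.9 CPM in BORIS KO and 37.0 to 61.8 CPM in CM. Of 5 red blood cell genes 3 globin genes were listed at 0 counts in all 6 libraries, as was *Hmgcs1*, a cholesterol synthesis gene that most cells use, so that a listed 0 may not measure absence. With the block 7 of the 11 Leydig, 10 of the 18 Sertoli and 8 of the 16 peritubular genes were called higher, beside 12.9% of all genes tested. In these mixed preparations a larger share of a cell type and more of its RNA per cell cannot be told apart, and the part of cell composition in the other differences was not tested.

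Lipid genes were higher in CM where they passed. Of 24 genes of cholesterol synthesis and transport 2 were called, *Hsd17b7* and *Sc5d*, both enzymes of late cholesterol synthesis. *Hsd17b7* rose from 5.55, 5.94 and 6.11 CPM to 19.4, 9.83 and 14.4 CPM, and *Sc5d* from 11.3, 17.2 and 17.8 CPM to 46.5, 21.1 and 43.7 CPM. The list had a median log2 fold change of 0.82, and 12 of its members were called higher with the block. None of 12 fatty acid desaturases and elongases was called (median 1.01), and 7 were called higher with the block, beside 12.9% of all genes. *Scd2* and *Fads2*, desaturases, were at 127 to 170 and 118 to 145 CPM in BORIS KO and at 207 to 911 and 197 to 892 CPM in CM, with CM replicate 1 the highest for both.

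The remaining lists moved less evenly. Among 15 retinoic acid genes *Dhrs4*, a retinal reductase, fell from 22.1, 30.0 and 26.3 CPM to 6.32, 14.4 and 11.4 CPM, while *Aldh1a1*, which makes retinoic acid, was at 177 to 244 CPM in BORIS KO and 331 to 686 CPM in CM without passing the test. Among 27 apoptosis genes *Cycs*, cytochrome c of somatic cells, rose from 13.5, 17.0 and 15.8 CPM to 40.9, 36.7 and 59.9 CPM. *Cycs* has many processed copies that may share its reads. The list had a median of 0.74, and 12 members were called higher with the block, beside 12.9% of all genes. None of 13 genes of cohesin and its regulators was called (median -0.03), nor any of 16 imprinted genes, several of which are classical CTCF targets (median 0.31). The block called 1 cohesin gene higher and 1 lower, and 2 imprinted genes higher and 1 lower, in a fit that called 12.9% of all genes higher and 10.6% lower. In all, 27 different genes of the lists were called, out of 379 genes called over all genes tested (2.21%). The lists were chosen with earlier results of these data known, so this count is a description.

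**Figure D3:**
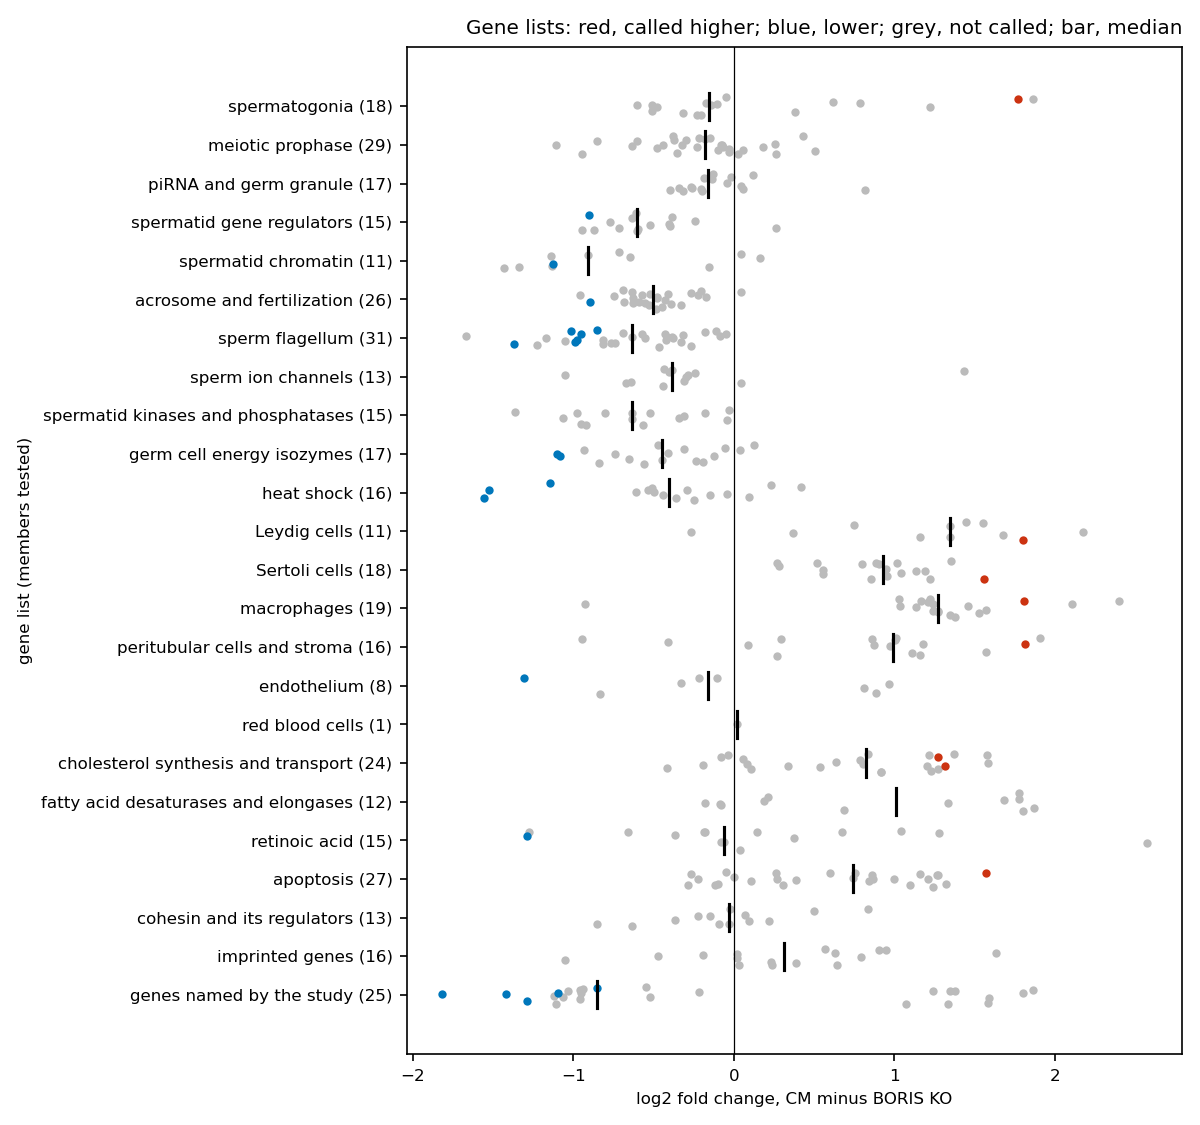
Log2 fold change of CM over BORIS KO for each tested member of 24 gene lists. Red and blue points are members called higher and lower, grey points members not called, and bars the medians, which ran from -0.91 for spermatid chromatin to 1.35 for Leydig cells.

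Of 25 genes that the study itself named, a list drawn up on these samples and so no independent evidence, 5 were called, all lower. *Prss50*, a testis serine protease also known as TSP50, was at 4.35, 4.34 and 6.61 CPM in BORIS KO and at 2.23, 1.16 and 0.709 CPM in CM. It fell to 26.8% of the mean (log2 fold change -1.82, SE 0.37, edgeR adjusted p = 0.0401). *Prss38*, another serine protease, was at 6.24, 5.78 and 5.62 CPM in BORIS KO and at 2.33, 2.20 and 2.05 CPM in CM. *Mfi2*, which encodes melanotransferrin, fell from 19.7, 15.7 and 12.3 to 6.85, 9.28 and 6.22 CPM. *Dhrs4* and *Tcp11* completed the 5. Beside them, 9 members had a positive and 11 other members a negative fold change without a call. With the block 8 were called higher and 12 lower, in a fit that called 12.9% of all genes higher and 10.6% lower.

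The called genes were then placed by their levels in purified WT germ cells. The purified cell libraries were made from poly(A) RNA and sequenced on Illumina. The whole testis libraries were depleted of ribosomal RNA and sequenced on Ion Proton, so levels in the 2 materials are not alike in method. WT spermatocytes had replicates 1 and 2 only. Of the 197 lower genes 118 (59.9%) were more than 2-fold higher in round spermatids than in spermatocytes, beside 19.2% of all genes tested, and 3 (1.52%) were more than 2-fold higher in spermatocytes, beside 20.3%. Of the 182 higher genes 129 (70.9%) were below 1 CPM in both cell types, beside 28.8% of all genes tested. For the calls of the fit with the block these shares were 50.6% of the lower and 54.7% of the higher genes, and without CM replicate 2 they were 50.2 and 59.4%. The purified libraries were not used to choose the genes, and the shares are descriptions. On the X chromosome lay 10 of the 182 higher genes (5.49%) and 2 of 192 lower genes with a position (1.04%), beside 4.02% of all 16481 genes with a position.

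**Figure D4:**
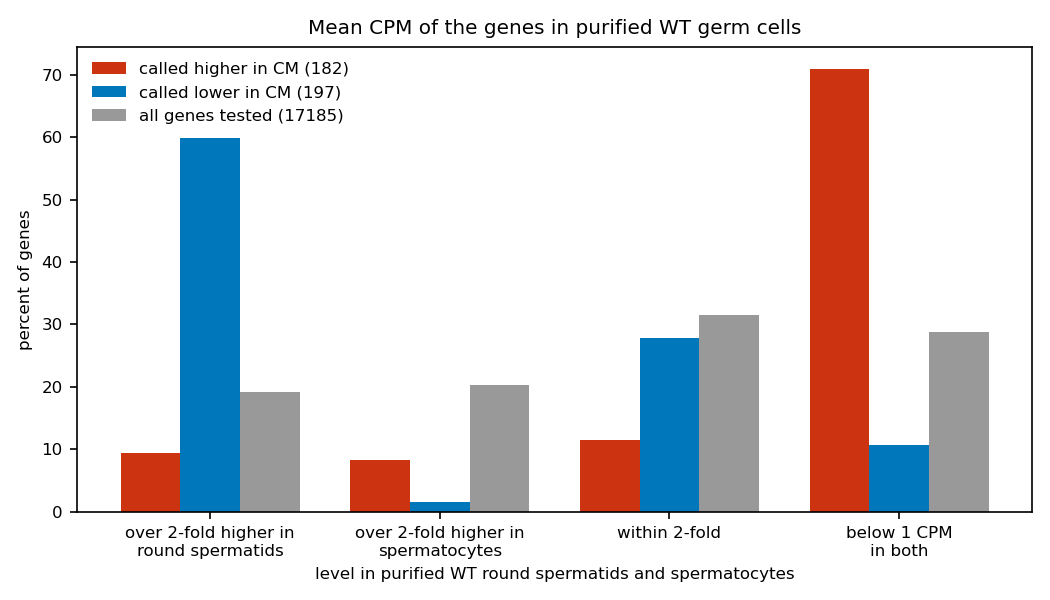
Percent of called and of all tested genes in 4 classes of level in purified WT round spermatids and spermatocytes, from mean CPM. Of the genes called lower in CM 59.9% were more than 2-fold higher in round spermatids, and of those called higher 70.9% were below 1 CPM in both.

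The same comparison was read in purified cells, where the *Ctcf* level went against the labels. In round spermatids *Ctcf* was at 25.9 to 29.8 CPM in BORIS KO and at 177, 47.9 and 39.8 CPM in the libraries labelled CM, and in spermatocytes at 28.8 to 30.4 CPM and at 83.6, 33.1 and 32.4 CPM. CM replicate 1 was the highest in both. With BORIS present, *Ctcf* in spermatocytes was at 42.8, 50.5 and 31.3 CPM in CTCF HET and at 33.8 and 32.0 CPM in WT, so it was not lower there either. In round spermatids it was at 22.4 to 34.1 CPM in CTCF HET and 29.6 to 49.7 CPM in WT. *Rltpr* was high in the libraries labelled CM, as given above. Far more genes were called in purified cells than in whole testis. At the same threshold 6922 of 16200 genes were called in round spermatids, 3602 higher and 3320 lower. In spermatocytes 5950 of 15263 were called, 3036 higher and 2914 lower. The sign of a single gene there was therefore not read as a repeat of its whole testis call. Of the 193 lower genes tested in round spermatids 150 (77.7%) were lower in the libraries labelled CM there too, beside 48.3% of all genes tested. Of 123 higher genes 84 (68.3%) were higher, beside 51.7%. Without CM replicate 1 of the purified cells the shares were 79.3 and 69.9%.

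In spermatocytes the lower genes did not keep their direction. Of 185 tested 81 (43.8%) were lower in the libraries labelled CM, beside 47.7% of all genes, with a median log2 fold change of 0.26, and 73 of 115 higher genes (63.5%) were higher, beside 52.3%. Without CM replicate 1 the shares were 41.6 and 56.5%. Of the 8 lower genes with the smallest p in whole testis 6 had a negative log2 fold change in round spermatids and 5 in spermatocytes. *Hk1* had -1.01 and -0.76 and *Csnk1g2* -1.27 and -0.70, while *Wbscr25* went the other way with 1.56 and 2.30 and *St6galnac2* had -0.54 and 1.29. The 5 called genes named by the study had negative values in round spermatids, from -1.12 for *Mfi2* to -1.61 for *Tcp11*. The 4 of them tested in spermatocytes had -1.14 to -1.58. *Prss50* was near the floor in round spermatids and not called there (log2 fold change -1.31, SE 0.94, edgeR adjusted p = 0.290). It was at 1.31, 1.23 and 1.82 CPM in BORIS KO and at 0, 1.16 and 0.596 CPM in the libraries labelled CM. Spermatid genes differed between the cell types, with -0.67 and 1.03 for *Akap3*, -0.28 and 1.79 for *Klhl10* and -0.87 and 0.41 for *Gapdhs*, and *Sox30* had 0.14 and 0.13. Of the 8 higher genes with the smallest p 4 were tested in round spermatids and 5 in spermatocytes, where *Rltpr* was positive and the others, such as *C3* with -1.38 and -1.21, were negative.

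Whether the *Ctcf* allele acted differently without BORIS was tested as the difference between CM minus BORIS KO and CTCF HET minus WT. With BORIS present the allele changed 1 gene at the same threshold (0.00582% of those tested), *Rltpr*. These comparisons share no library. Of the 182 higher genes 132 (72.5%) were also higher in CTCF HET than in WT, beside 52.9% of all genes tested, with a median log2 fold change of 0.22 against 1.57 without BORIS. Of the 197 lower genes 153 (77.7%) were also lower, beside 47.1%, with a median of -0.12 against -1.09.

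The difference between the effects passed the edgeR test for none of 17185 genes (0%). At an unadjusted p under 0.05 there were 1713, DESeq2 called 38, and the fit with the block called 4 (0.0233%). The smallest p belonged to *Anxa1*, *Rps4x*, *Csnk1g2*, *Rnase4* and *Neurl1a*, each with an edgeR adjusted p of 0.473. *Csnk1g2* had a log2 fold change of 0.11 (SE 0.23) with BORIS and -1.53 (SE 0.24) without, and *Anxa1* of -0.72 (SE 0.28) and 1.52 (SE 0.26). *Rps4x* had -0.43 (SE 0.31) and 1.82 (SE 0.31), *Neurl1a*, a ubiquitin ligase, 0.45 (SE 0.27) and -1.39 (SE 0.27), and *Rnase4*, a secreted ribonuclease, -0.98 (SE 0.43) and 2.00 (SE 0.42). *Dhrs4* was low in both, with -1.14 (SE 0.30) and -1.29 (SE 0.30), and *Prm2*, *Hk1* and *Tcp11* had 0.03, -0.03 and -0.06 with BORIS present.

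**Figure D5:**
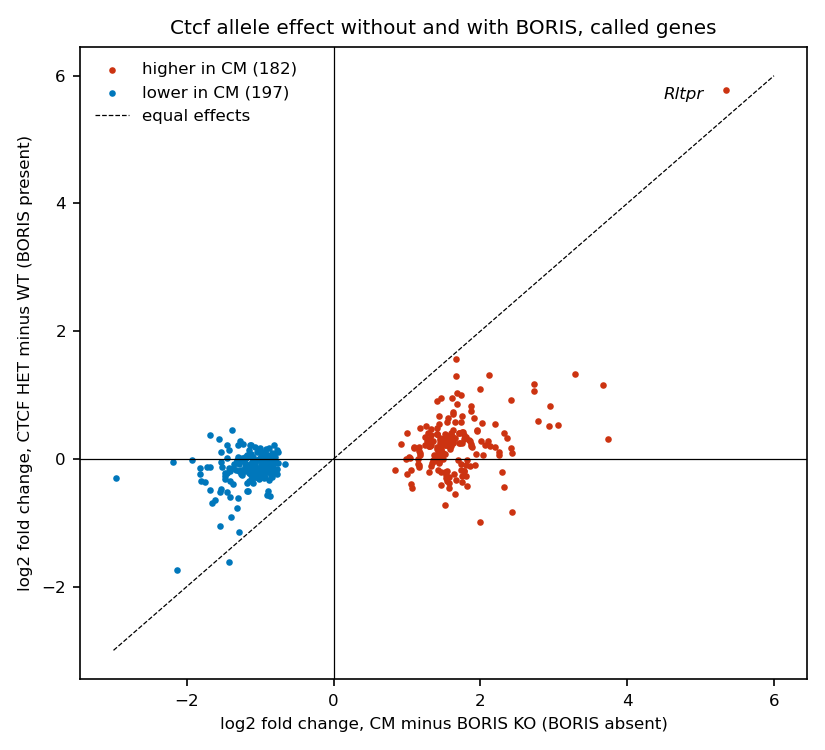
Effect of the loss of 1 *Ctcf* allele on each of the 379 called genes, as log2 fold change without BORIS (CM minus BORIS KO, horizontal) and with BORIS (CTCF HET minus WT, vertical); the dashed line marks equal effects. Genes were chosen on the horizontal axis. *Rltpr* lay near the line at 5.34 and 5.77, and the medians were 1.57 and 0.22 for the 182 higher and -1.09 and -0.12 for the 197 lower genes.

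Peaks of CTCF and BORIS within 2 kb of a transcription start were counted for the called genes. The lists compare CM with WT and not with BORIS KO, carry no replicates, and their depth is unknown, so the shares have no error. Of 192 lower genes with a position 88 (45.8%) carried a WT CTCF peak, beside 38.0% of all 16481 genes with a position, and 53 (27.6%) a WT BORIS peak, beside 19.4%. Of 182 higher genes 61 (33.5%) carried CTCF and 28 (15.4%) BORIS. A WT CTCF peak that no CM CTCF peak overlapped lay at 58 lower genes (30.2%) and 43 higher genes (23.6%), beside 27.5% of all. These shares follow in part how many genes carried any WT CTCF peak. Of the genes that did, such a peak lay at 58 of 88 lower, 43 of 61 higher and 4532 of 6269 of all genes, so the lower genes did not stand out. The differences from all genes were not tested, and with the upper 50% of peak heights the higher genes were above all genes for CTCF (19.8 against 18.7%). *Dhrs4* carried CTCF and BORIS 506 and 528 bp after its start, *Tcp11* carried CTCF alone, and *Kit*, which was not called, had weak peaks of both, of heights 132 and 124.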

How the data were processed

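Whole testis RNA-seq (Ion Proton) of 3 libraries for each of 4 genotypes, and RNA-seq of purified round spermatids and spermatocytes, were used as the raw counts per gene symbol that the authors deposited, without normalization; testis reads had been aligned to mm9 with TopHat2 and then, where unmapped, with Bowtie2, and the counting tool, annotation and use of strand are not given in the sources used here. The CTCF and BORIS peak heights that the authors deposited are a signal from lists called without stated normalization, and heights were not compared between lists.

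Counts were filtered with filterByExpr (10 counts at the median depth, 15 in total), scaled by TMM and fitted with edgeR 4.0.16 (R 4.3.3) with 4 genotype means and the robust quasi-likelihood test, with Benjamini-Hochberg adjustment. DESeq2 1.42.0, RLE scaling, no filter, 2 genotypes, a replicate block, other thresholds and leaving out each library were alternatives, and scripts were tested on simulated data. Residuals of same-numbered libraries correlated above 0.1 in 18 of 18 pairs of genotypes (0.12 to 0.63; 0.14 to 0.43 for BORIS KO with CM), so the number in the library titles was read as pairing them. Replicates 2 and 3 were not clearly separated: BORIS KO replicate 2 correlated at 0.41 with CM replicate 3 and at 0.14 with CM replicate 2. p-values measure the spread between pooled preparations.

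Gene lists were described by counts and medians, without a test. Members, lists and the naming rule were chosen with earlier results of these data known. Named were *Ctcf*, *Ctcfl*, *Rltpr*, the study's genes, the 8 non-overlapping calls with the smallest p in each direction, up to 5 called members and 3 abundant uncalled members of each list, and the 5 smallest interaction p values; others are given by range or count. Genes were placed by symbol in the GENCODE annotation of mm9, which matched 16481 of 17185. Pol2 and H3K4me3 lists were not used.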

Additional observations from a re-analysis of the deposited data

Results flagged for a closer look

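With the replicate number as a block, the effect of the *Ctcf* allele differed between mice without and with BORIS for 4 genes, all lower, while edgeR without the block called none. The interaction, as the log2 difference of the effects, was -1.61 (SE 0.23, edgeR adjusted p = 0.0355) for *4933402P03Rik*, -1.74 (SE 0.25, 0.0355) for *Odf3b*, -1.57 (SE 0.22, 0.0355) for *Sik1* and -1.39 (SE 0.21, 0.0443) for *Spata3*, and without the block the adjusted p was 0.473 for each. *Odf3b*, related to an outer dense fibre protein of the sperm tail, was at 15.2, 22.9 and 37.7 CPM in WT, 16.3, 25.4 and 47.9 CPM in CTCF HET, 11.3, 20.8 and 31.7 CPM in BORIS KO and 4.99, 6.53 and 9.06 CPM in CM, so that the CM libraries lay below all others. *4933402P03Rik* was at 412, 535 and 600 CPM in BORIS KO and at 128, 210 and 236 CPM in CM. *Spata3*, a gene of spermatogenesis, was at 251, 353 and 458 CPM and at 74.8, 148 and 157 CPM. *Sik1*, a salt-inducible kinase gene, was at 48.8, 36.4 and 42.7 CPM and at 23.8, 15.4 and 13.4 CPM. These genes were named after their values were seen.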

How the results depend on the processing

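The count of 379 genes between CM and BORIS KO was 2326 with DESeq2, 190 without the filter on low counts, 1 with only BORIS KO and CM in the fit and 1 at the study's threshold of an adjusted p under 0.001 with a change over 2-fold. It ranged from 1 to 2880 when 1 of the 6 libraries was left out, with 2880 without CM replicate 2. With the replicate block it was 4038, and 1225 with the replicate block and only these genotypes, a fit chosen after seeing the data. RLE scaling (484) and a change over 2-fold (304) kept it within 1.5 times. Of the gene lists 27 genes were called in the main test, 123 with DESeq2, 13 without the filter, 0 with only these genotypes, 0 at the study's threshold, 176 with the replicate block and 0 to 142 with 1 library left out. These list counts stand beside the counts over all genes given above for the same fits. The interaction gave 0 calls, 38 with DESeq2, 4 with the replicate block and 0 in each fit without 1 library, and CTCF HET against WT gave 1 call, or 6 with DESeq2. The cause of these differences was not tested. The 43 named called genes other than *Rltpr* were called in 4 to 6 of 11 alternatives each, with a highest edgeR or DESeq2 adjusted p between 0.144 and 0.163, while *Rltpr* was called in all 11.

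For the genes called with the replicate block, 68.6% of the lower genes had the same sign in round spermatids and 53.3% of the higher genes in spermatocytes, against 77.7 and 63.5% in the main calls. The shares without CM replicate 1 of the purified cells, and the stage shares of other calls, were also chosen after seeing the data. With the upper 50% of peak heights, by construction fewer peaks, the promoter shares were 19.8% for CTCF, 8.79% for BORIS and 12.1% for CTCF without a CM peak in the higher genes, and 26, 18.2 and 14.1% in the lower genes, beside 18.7, 11 and 10.8% of all genes. The share of the higher genes was then above that of all genes for CTCF and for CTCF without a CM peak, where it had been below. With a 1 kb window the CTCF share was 28% of the higher, 40.1% of the lower and 33.3% of all genes, and the stricter overlap left the shares of called genes as they were.

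The sign turned in 33 of the refits of named genes, all of 13 genes that were not called and lay near 0. When 1 library was left out the log2 fold change ran from -0.20 to 0.068 for *Dazl*, -0.28 to 0.0084 for *Uchl1*, -0.31 to 0.036 for *Stag3*, -0.35 to 0.057 for *Tdrd6*, -0.38 to 0.074 for *Tdrd7*, -0.20 to 0.059 for *Dnahc8*, -0.34 to 0.37 for *Ppp1cc*, -0.29 to 0.15 for *Slc2a3*, -0.081 to 0.17 for *Alas2*, -0.23 to 0.12 for *Fdft1*, -0.27 to 0.32 for *Aldh1a2*, -0.16 to 0.11 for *Mdm2* and -0.23 to 0.24 for *Kcnq1ot1*. With only these genotypes it was -0.011 for *Alas2*, -0.0255 for *Mdm2* and -0.0016 for *Kcnq1ot1*. *Mdm2* was also at -0.013 with RLE scaling, -0.013 with DESeq2 and -0.00080 with the replicate block. Depth limited genes such as *Ctcfl*, which had at most 8 counts in a BORIS KO or CM library.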
